A study of Arabidopsis thaliana with 42 samples.

Results

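Among 22746 plant probe sets measured in Arabidopsis thaliana shoots, 42 (0.185%) had their highest inflorescence level in the floral mutant ap2-6 by a wide margin. These 42 were chosen by their own values. The group mean of log2(signal + 8) in ap2-6 had to lie at least 0.7 above the highest mean of Col-0 and 6 other floral mutants, and the mean ap2-6 signal had to exceed 20. Among them 5 genes known from the anther, AT5G62080, AT5G07230, AT3G52130, AMS and SWEET8, are set aside here. The remaining 37 probe sets are the members described below. The annotation gives a single gene for 21 of them, several genes for 1, probe set 258392_at, and no gene for 15. Because the values of the 8 inflorescence groups chose the members, those values are given as a description without a test. Tests were kept for 6 other organs, which had no part in the choice.

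All 8 inflorescence groups were shoot apices taken after bolting, with 3 arrays each. One group was the strain Col-0, and the others were the mutants ap2-6, clv3-7, lfy-12, ap1-15, ap3-6, ag-12 and ufo-1, each listed in the Col-0 background. The 6 organs, all of Col-0 and also 3 arrays each, were the hypocotyl, the apex in vegetative growth with and without its young leaves, the apex at the transition to flowering but before bolting, the 2nd internode of the stem and its 1st node. Every plant grew on soil at 23 °C and 65% relative humidity in continuous light. The labels give no plant age. For Col-0 the labels state that the apex sample carried flowers up to stages 7 and 8. For the 7 mutants they state no flower stage, so genotype and flower stage cannot be told apart. Nothing in them tells whether the replicates of a group were separate plants or pools. Each p-value below rests on the spread of samples within groups, pooled over all groups of a fit and moderated across probe sets. That spread may be technical.

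AP2 encodes a transcription factor of floral organ identity that acts in sepals and petals and restricts AG, the identity gene of stamens and carpels, to the centre of the flower. Stamens form anthers, in which the tapetum, the innermost wall layer, surrounds the developing pollen. The tapetum feeds the pollen, secretes lipid transfer proteins in large amounts and supplies material for the pollen wall. No probe set carries AP2 as its single gene in the annotation, so AP2 itself was not analysed here.

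The members were faint to moderate signals that stood above every other inflorescence array. Their mean ap2-6 signals ran from 20.2 to 637, with a median of 54.2. Of the 37, 17 averaged under 50, 13 lay between 50 and 100, and 7 exceeded 100. In all 37 the lowest ap2-6 array lay above the highest of the other 21 arrays, as it did for 0.972% of all probe sets, and the rule all but requires this. The margin over the next highest group ran from 0.70 to 2.02 on the log2(signal + 8) scale, with a median of 0.99, or 1.99-fold. It reached 1 in 18 members and 1.5 in 5, while the median margin of all probe sets was -0.22. In 17 members no other inflorescence array exceeded a signal of 20. These signals lie near the added 8, which therefore sets much of the size of their margins. In whole apices, more cells of a type and more RNA per cell cannot be told apart.

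**Figure D1:**
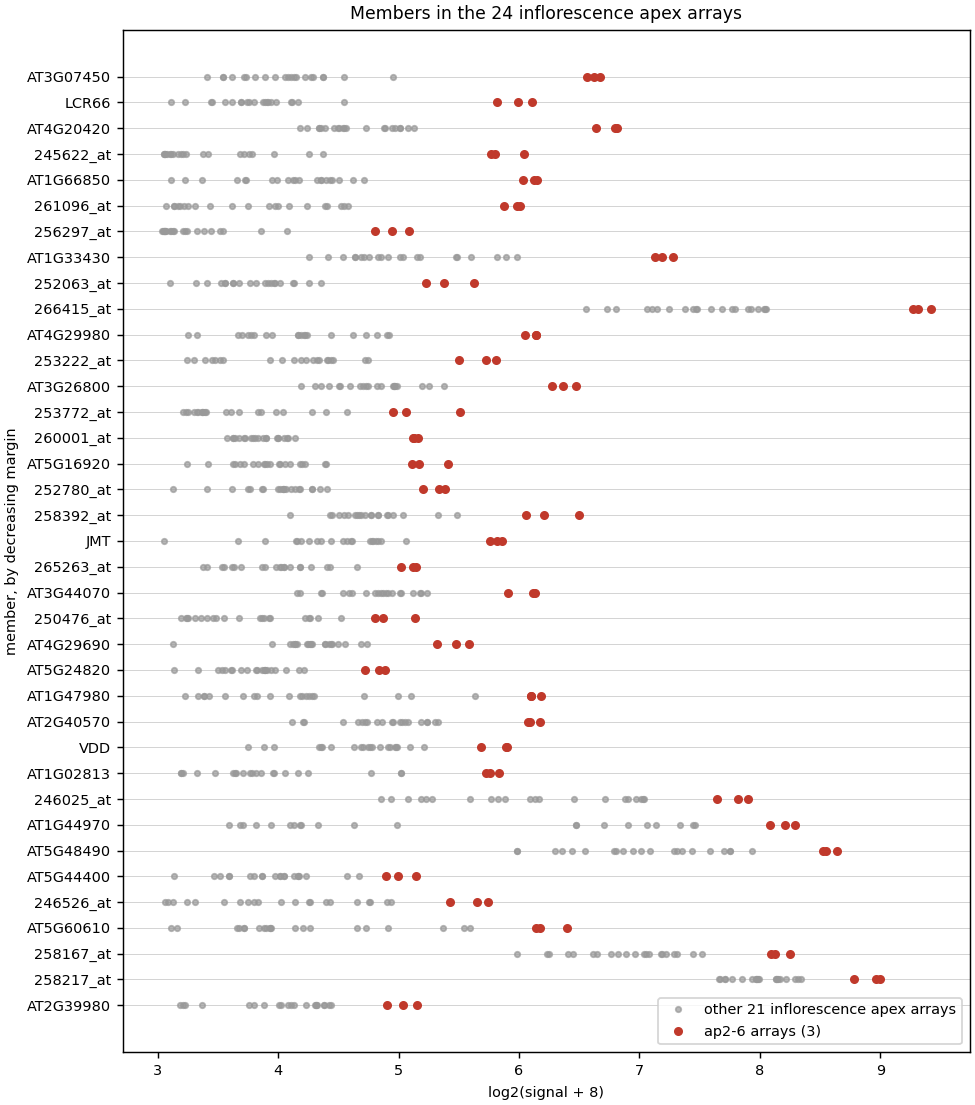
Each row is a member, ordered by its margin, and the horizontal axis is log2(signal + 8) on single inflorescence apex arrays. Red points are the 3 ap2-6 arrays and grey points the other 21 arrays, which the red points exceed in all 37 rows.

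The member with the widest margin was AT3G07450, which encodes a small protein of the lipid transfer family. Its signal was 94.0, 86.4 and 90.4 on the ap2-6 arrays. On the other 21 arrays it ran from 2.61 through a median of 8.99 to 22.9, the highest being an ap1-15 array. AT1G66850, of the same protein family, read 61.6, 57.4 and 63.2 in ap2-6 against 0.658 to 18.3 elsewhere, with a median of 9.66. Its margin of 1.66 over clv3-7 was smaller than the 2.02 of AT3G07450. Another gene of this family, AT5G48490, behaved differently, with high signals in every genotype. It read 390.4, 365 and 360.0 in ap2-6, followed by 208, 236 and 207 in lfy-12 and 184, 200.1 and 165 in ap3-6. In ap1-15 it was lowest, at 79.0, 55.3 and 70.7, so the other genotypes covered a wide range below ap2-6.

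Of the genes tied to the tapetum or the pollen wall, AT4G20420 belongs to a family named for its specific expression in the tapetum. It read 104, 103 and 91.7 in ap2-6 and between 10.2 and 27 on the other 21 arrays, with a median of 15.3. AT1G33430, a galactosyltransferase needed for the pollen wall, read 147, 138 and 132 in ap2-6. The next group was clv3-7 with 48.4, 40.5 and 55.4, then ap1-15 with 36.9, 51.6 and 36.6, and the median of the 21 arrays was 22.2. AT1G44970, a secreted peroxidase known from the tapetum, was among the brightest members. Its ap2-6 arrays read 305, 264 and 287, the clv3-7 arrays 168, 166 and 153, the ap1-15 arrays 112, 126 and 133 and the Col-0 arrays 80.6, 81.0 and 96.7. In lfy-12, ap3-6, ag-12 and ufo-1 none of the 12 arrays exceeded 23.7. This gene thus had 3 levels: highest in ap2-6, intermediate in 3 genotypes and low in 4.

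LCR66, a defensin-like small cysteine-rich protein, had the second widest margin. It read 55.5, 48.5 and 61.2 in ap2-6 and at most 15.4 elsewhere, on a ufo-1 array, around a median of 5.95. JMT, which converts jasmonic acid to methyl jasmonate, read 48.3, 50.2 and 46 in ap2-6. Its other 21 arrays reached 25.5 in ap1-15, with a median of 15.2, and were lowest in ap3-6 at 4.73, 0.289 and 6.83. VDD, a transcription factor of the B3 type known from the ovule, read 51.7, 51.5 and 43.3. Col-0 followed with 20.7, 26.2 and 23.7, and 3 other genotypes reached similar values: clv3-7 at 22.5, 29.1 and 17.7, ap3-6 at 23.6, 19.5 and 23.3 and ufo-1 at 19.1, 18.9 and 18.1. The lfy-12 arrays were lowest, at 7.60, 6.75 and 12.6. VDD was thus measured above 20 in several genotypes, and ap2-6 stood 1.80-fold above the next of them.

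Enzyme genes formed another part of the members. AT4G29690, of the alkaline phosphatase-like phosphodiesterases, read 39.9, 36.6 and 31.9 in ap2-6 and at most 18.6 elsewhere. AT5G44400, a berberine bridge enzyme-like oxidase, read 27.5, 23.9 and 21.8, and its nearest group, lfy-12, read 9.96, 8.61 and 15.8. AT2G39980, an acyltransferase of the BAHD type, read 22.0, 27.7 and 24.8 in ap2-6 and reached 13.6 in lfy-12. These 3 genes were faint in the ap2-6 apex, and all 3 reached higher levels in an organ outside the inflorescence, as given below.

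In 8 members ufo-1 was the group next to ap2-6. The desiccation-related gene AT1G47980 read 64.8, 60.4 and 60.8 in ap2-6 and 24, 41.7 and 26.4 in ufo-1, while the other 18 arrays reached no more than 18.3. AT1G02813, of a plant family of unknown function, read 46.2, 44.8 and 48.9 in ap2-6, 19.3, 24.5 and 24.5 in ufo-1 and at most 11 on the other 18. Probe set 245622_at read 57.9, 46.6 and 47.9 in ap2-6, 12.7, 7.59 and 11.1 in ufo-1 and at most 5.79 elsewhere. In these 3 members the ufo-1 arrays lay above all arrays of the remaining 6 groups. The same order was seen in AT5G07230, a tapetum gene set aside above, which read 84.4, 81.2 and 77.5 in ap2-6, 14.5, 12.4 and 13.8 in ufo-1 and at most 5.16 elsewhere. Of the other members, 8 had clv3-7 as the next group, 6 lfy-12, 5 ap1-15, 4 ag-12, 4 Col-0 and 2 ap3-6, so no single genotype followed ap2-6 throughout.

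Members whose role is left out here were AT4G29980, AT3G26800, AT5G16920, AT3G44070, AT5G24820, AT2G40570 and AT5G60610. AT4G29980 read 62.5, 62.6 and 58.2 in ap2-6 and at most 22.3 elsewhere. AT3G26800 read 69.4, 74.6 and 80.9 against a highest value of 33.6, in ag-12. AT3G44070 read 62.0, 61.5 and 52.0 against a highest value of 29.7, also in ag-12. These ap2-6 signals were well above the filter of 20, whereas those of AT5G16920 (34.5, 26.6 and 28) and AT5G24820 (18.4, 21.5 and 20.7) were close to it. AT2G40570 read 64.1, 60.1 and 59.3 in ap2-6, then 29.8, 28.3 and 31.5 in lfy-12 and 29.6, 25.7 and 32 in ap3-6. AT5G60610 was second highest in clv3-7, with 64.1, 62.4 and 76.6 in ap2-6, 33.4, 40.2 and 38.7 in clv3-7 and at most 22.2 in the other 6 groups.

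The brightest member had no gene name. Probe set 266415_at read 628, 677 and 608 in ap2-6, 255, 258 and 245 in ap3-6 and 98.0, 85.8 and 104 in ag-12, the lowest group. Probe set 258217_at read 432, 491 and 501 in ap2-6, and its other 21 arrays ran from 194 through a median of 245 to 316. Both were strongly expressed in all 8 genotypes, unlike 256297_at, whose ap2-6 arrays read 26.0, 19.9 and 22.8 and whose other 21 arrays had a median of 0.817 and a highest value of 8.84.

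The 3 ap2-6 arrays all lay above the other genotypes, which the rule all but requires, and they differed somewhat in the exact level. Of the 37 members, 18 were highest on the first ap2-6 array, 9 on the second and 10 on the third. The median log2 deviation of the members on the first array from the other two was 0.06, against -0.01 over all probe sets. The spread was widest in 253772_at, with 25.3, 37.6 and 22.9 on the 3 arrays, an SD of 0.30 on the log2(signal + 8) scale, and narrowest in 260001_at, with 27.8, 27 and 26.7 and an SD of 0.02.

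At the margin of 0.7, the members just inside were AT2G39980 at 0.70, 258217_at at 0.71 and 258167_at at 0.73. Just outside were SWEET3, a sugar transporter gene, at 0.69 with a mean ap2-6 signal of 24.7, and the unnamed 260355_at and 251555_at, both at 0.69. The gene sks18 had a margin of 0.93 but a mean ap2-6 signal of 19.8, under the minimum of 20. The genes set aside reached larger margins: 3.19 in AT5G62080, 3.01 in AT3G52130 and 2.05 in AT5G07230, compared with 1.12 in AMS, a bHLH regulator of the tapetum, and 1.01 in the sugar transporter gene SWEET8. Applied to each genotype in the place of ap2-6, and before anything is set aside, the same rule found 67 probe sets in ap1-15, 23 in lfy-12, 20 in Col-0, 18 in ap3-6, 12 in clv3-7, 7 in ag-12 and 6 in ufo-1, against 42 in ap2-6.

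The members were then compared across the genotypes other than ap2-6. Stamens are known to be missing or replaced in strong mutants of LFY, UFO, AP3 and AG, and to form in Col-0 and in mutants of CLV3 and AP1. In 8 members the mean log2 level of Col-0, clv3-7 and ap1-15 lay at least 0.5 above that of lfy-12, ufo-1, ap3-6 and ag-12, as it did for 1.42% of all probe sets. The rule used all of these groups, so this is a description without a test. The difference was 2.89 in AT1G44970, 1.31 in 246025_at, 1.05 in 246526_at, 0.79 in AT1G33430, 0.69 in AT4G29980, 0.62 in 261096_at, 0.56 in AT1G66850 and 0.52 in AT5G60610. Only AT5G48490 lay at least 0.5 the other way, at -0.69, which 1.96% of all probe sets did. The other 28 members lay within 0.5, and the median was 0.08 in the members and 0.03 over all probe sets. Probe set 246025_at illustrates the first kind with 217, 192 and 231 in ap2-6, 122, 123 and 109.7 in Col-0, 118, 121 and 112 in ap1-15 and 79.9, 63.7 and 97.1 in clv3-7. Its 12 arrays of the other 4 genotypes lay at or under 62.2. Probe set 246526_at repeated this at lower signals, with 42.1, 35.1 and 45.4 in ap2-6, 11.1 to 22.7 on the 9 arrays of Col-0, clv3-7 and ap1-15 and at most 9.65 in the other 4 genotypes. AT5G60610 departed from this order, since Col-0 read 5.16, 6.35 and 7.34, below the 17.3, 18.5 and 22.2 of ap3-6. So did 261096_at, where Col-0 averaged 3.44 and ufo-1 7.99, both near background. In AT1G33430, AT4G29980 and AT1G66850 the Col-0 arrays overlapped arrays of the other 4 genotypes.

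**Figure D2:**
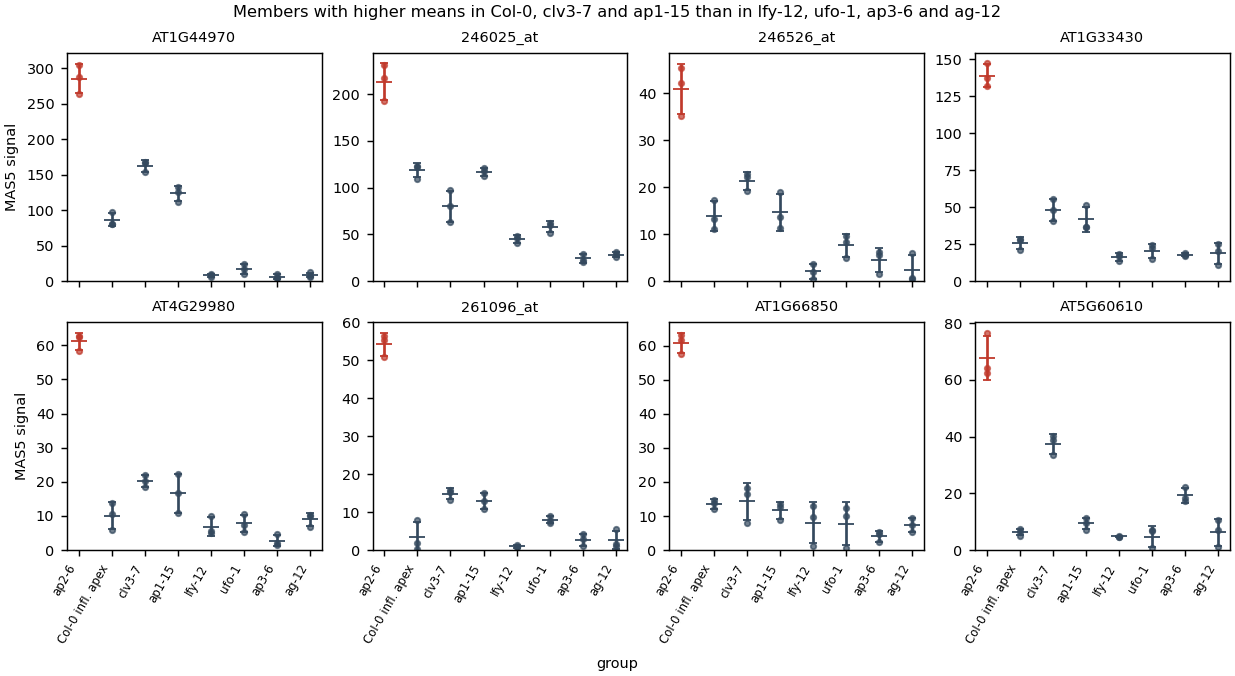
Signals (vertical axis, linear MAS5 units, a separate scale per panel) of the 8 members whose level in Col-0, clv3-7 and ap1-15 was at least 0.5 above that in lfy-12, ufo-1, ap3-6 and ag-12 on the log2 scale. Points are arrays and bars are means with SD (n = 3); ap2-6 is in red and above every other array in all 8 panels.

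Few other markers of the anther wall and tapetum could be followed. The list for this cell type had 54 entries, some of which name the same gene again, so it holds fewer genes. From it 10 genes had a probe set: AT1G66850 and AT4G20420 among the members, the 5 genes set aside, and AT5G52160, UND and AT3G23770. The first 7 were high in ap2-6 by the rule's own choice. The last 3 were faint on all 24 arrays and were not tested. Their summed signal was 33.9 in ap2-6 and 15.4 to 22.6 in the other 7 groups. AT5G52160, another lipid transfer family gene, read 11.1, 23.2 and 16.8 in ap2-6 against at most 10.9 elsewhere, while AT3G23770 read 5.73, 9.28 and 5.52 against a median of 6.41. UND read 10.9, 12.3 and 6.84 in ap2-6 and up to 14.1 elsewhere, so its groups overlapped. The defining regulator AMS, one of the 5 set aside, read 28.2, 26.1 and 30.4 in ap2-6 and at most 12.6 elsewhere. The part of these markers in the members' levels was not tested.

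Genes that act earlier in the anther were tested, since they are not members. Of the 6 listed early anther and sporogenous cell genes with a probe set, 4 rose in ap2-6 over the mean of the other 6 mutants and 2 did not pass, in a limma fit of all 24 inflorescence arrays in which 9.09% of 14627 probe sets rose and 10.3% fell at an adjusted p under 0.05. Their median log2 change was 0.72, against 0.02 over all probe sets. SPL, which starts sporogenous cell formation, read 30.1, 34.8 and 31.6 in ap2-6 and rose by 1.42 ± 0.15 (SE of the limma fit, adjusted p = 8.6e-08). ROXY2, a glutaredoxin of anther development, rose by 1.13 ± 0.18, NUB, which shapes stamens and carpels, by 0.81 ± 0.11, and EMS1, the receptor kinase that specifies the tapetum, by 0.64 ± 0.06. The mean of the other mutants includes lfy-12, ufo-1, ap3-6 and ag-12, the genotypes grouped above for missing or replaced stamens. The part of those genotypes in these changes was not tested. SPL, ROXY2, NUB and EMS1 did not stand apart in ap2-6 the way the members did. SPL averaged 29.6 ± 3.2 (SD, n = 3) in ap1-15 and 23.1 ± 2.2 in Col-0, next to 32.2 ± 2.4 in ap2-6, and was at 1.49 ± 0.25 in ap3-6 and 1.09 ± 0.30 in ag-12.

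Against Col-0 alone, where 20.7% of probe sets passed (10.2% higher and 10.5% lower), EMS1 rose by 0.21 ± 0.08 (limma, adjusted p = 0.045), ROXY1 fell by 0.70 ± 0.16 (adjusted p = 0.0017) and the other 4 early anther genes did not pass. SPL differed from Col-0 by 0.37 ± 0.20 (limma, adjusted p = 0.21) and ROXY2 by 0.25 ± 0.23 (adjusted p = 0.49). The call for EMS1 was lost under several alternatives. ROXY1 read 91.0, 49.9 and 65.9 on the ap2-6 arrays, an uneven group. The Col-0 arrays stood apart in an added control, as given at the end, and these 2 comparisons share the ap2-6 arrays.

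**Figure D3:**
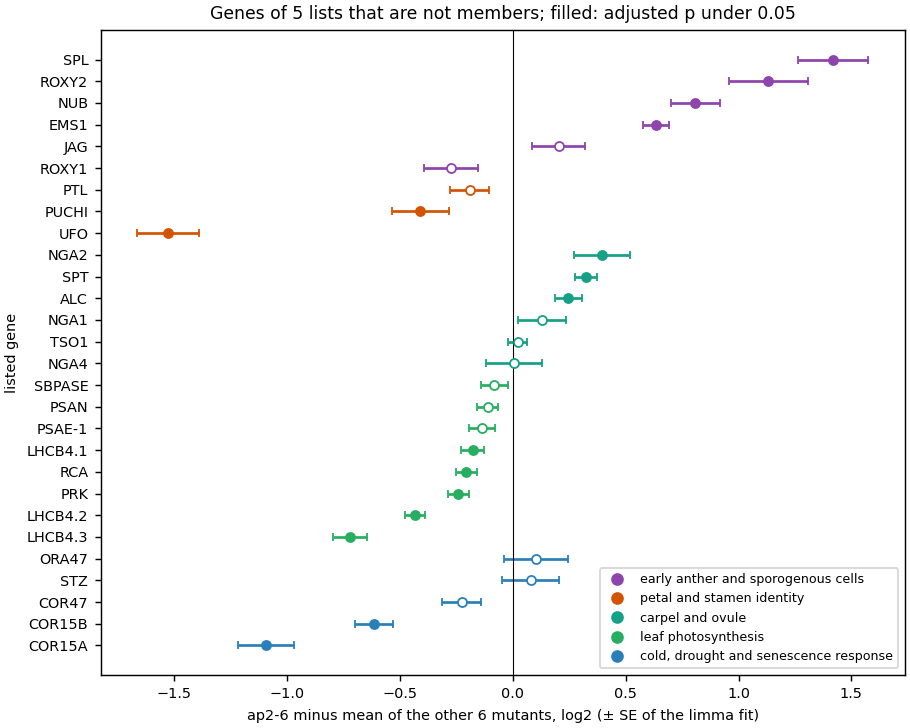
Log2 difference (horizontal axis) between ap2-6 and the mean of the other 6 mutants, with the SE of the limma fit, for listed genes that are not members, in 5 of the lists. Filled points passed at an adjusted p under 0.05; SPL is highest at 1.42 and UFO lowest at -1.53.

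Other cell types and responses were followed through lists of the same kind. In all, 35 listed genes outside the members passed the filter, of which 8 rose and 9 fell against the mean of the other 6 mutants (19.4% of all probe sets passed), while 3 rose and 4 fell against Col-0. Of 6 carpel and ovule genes 3 rose, SPT, a bHLH gene of carpel development, by 0.32 ± 0.05 (limma, adjusted p = 1.9e-05), NGA2 by 0.40 ± 0.12 and ALC by 0.25 ± 0.06, and against Col-0 SPT alone passed, at 0.38 ± 0.07. Each of these 3 had a higher mean in another mutant than in ap2-6. SPT averaged 146 in ap2-6, 156 in clv3-7 and 155 in ap1-15. ALC averaged 145 in ap2-6 and 249 in ap1-15, and NGA2 averaged 42.3 in ap2-6 and 46.2 in lfy-12. Of 3 tested genes from the petal and stamen identity list 2 fell. UFO, an F-box gene that activates AP3, fell by 1.53 ± 0.14 (limma, adjusted p = 2.4e-09) and PUCHI by 0.41 ± 0.13. The list's 4 genes with a probe set were UFO, PUCHI, PTL and RBE. The organ identity genes AP3, PI, AG and the SEP genes were thus not followed. The calls for NGA2, ALC and PUCHI were lost when a single ap2-6 array was left out. The adjusted p in limma was then 0.065 to 0.11 for NGA2 without any one of the 3 arrays, 0.071 for ALC without replicate 3, and 0.16 and 0.073 for PUCHI without replicate 2 and replicate 3. UFO read 8.48, 1.65 and 1.76 in ap2-6 and averaged 27.7 ± 1.4 (SD, n = 3) in Col-0, from which it differed by -1.62 ± 0.18. The lower signals are near or under the 8 added before taking logs, so the size of this change is not exact.

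Of 8 leaf photosynthesis genes 5 fell against the mean of the other mutants, from LHCB4.1 by 0.18 ± 0.05 to LHCB4.3 by 0.72 ± 0.07. The call for LHCB4.1 was lost without ap2-6 replicate 2 or replicate 3 (limma, adjusted p = 0.087 and 0.13). Both genes encode light-harvesting proteins of photosystem II. The list's summed signal was 4593 in ap2-6, within the 3429.5 to 7639.5 of the other 7 groups. Against Col-0, LHCB4.3 fell by 0.51 ± 0.10, SBPASE, a Calvin cycle enzyme, rose by 0.23 ± 0.08 (limma, adjusted p = 0.034) and the other 6 did not pass. The call for SBPASE was lost under 7 alternatives, among them leaving out ap2-6 replicate 2 (limma, adjusted p = 0.24), Col-0 replicate 2 or Col-0 replicate 3 (adjusted p = 0.11 for each of these). Of 5 cold, drought and senescence genes 2 fell against the mutants, the cold-regulated COR15A by 1.1 ± 0.12 and COR15B by 0.62 ± 0.08, while against Col-0 none of the 5 passed in the limma fit, with 3 at an unadjusted p under 0.05. Among the 8 inflorescence groups both had their highest means in ag-12, at 204 ± 51 and 161 ± 9 (SD, n = 3). Neither was lowest in ap2-6. COR15A averaged 27.8 in ap2-6, 22.9 in ap1-15 and 19.0 in Col-0, and COR15B averaged 56.1 in ap2-6 and 41.6 in ap1-15. The antimicrobial thionin gene THI2.1 was higher by 0.36 ± 0.05 than the mean of the mutants, and its relative THI2.2 fell by 0.87 ± 0.10 against Col-0. THI2.1 was not highest in ap2-6, where it averaged 852. It averaged 1442 in ufo-1, 894 in clv3-7 and 893 in Col-0. Lower means were 736 in ap1-15, 706 in lfy-12, 371 in ap3-6 and 342 in ag-12. The 2 epidermis genes, the 2 vascular genes and the single meiotic gene that passed the filter passed in neither limma comparison, and 0 of them had an unadjusted p under 0.05. The only microspore and pollen gene with a probe set, AT59, was below the filter, with a mean ap2-6 signal of 1.33.

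Outside the inflorescence, most members were near background. In 23 of the 37 (62.2%) no organ mean exceeded 20 in any of the 6 Col-0 organs, whereas this held for 0.912% of all probe sets with a mean ap2-6 signal over 20. This cutoff favours faint members, and the members' low levels in the other inflorescences were part of their choice. The 23 include AT3G07450, LCR66, AT1G66850, JMT and VDD, whose highest organ means were 9.59, 5.69, 10.3, 6.42 and 5.08. The other 14 members exceeded 20 in at least 1 organ and 4 of them in all 6. Hypocotyl held 11 of these 14, and the vegetative apex held 10. Fewer exceeded 20 in the apex with young leaves (8), the transition apex (7), the internode (6) and the node (5).

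**Figure D4:**
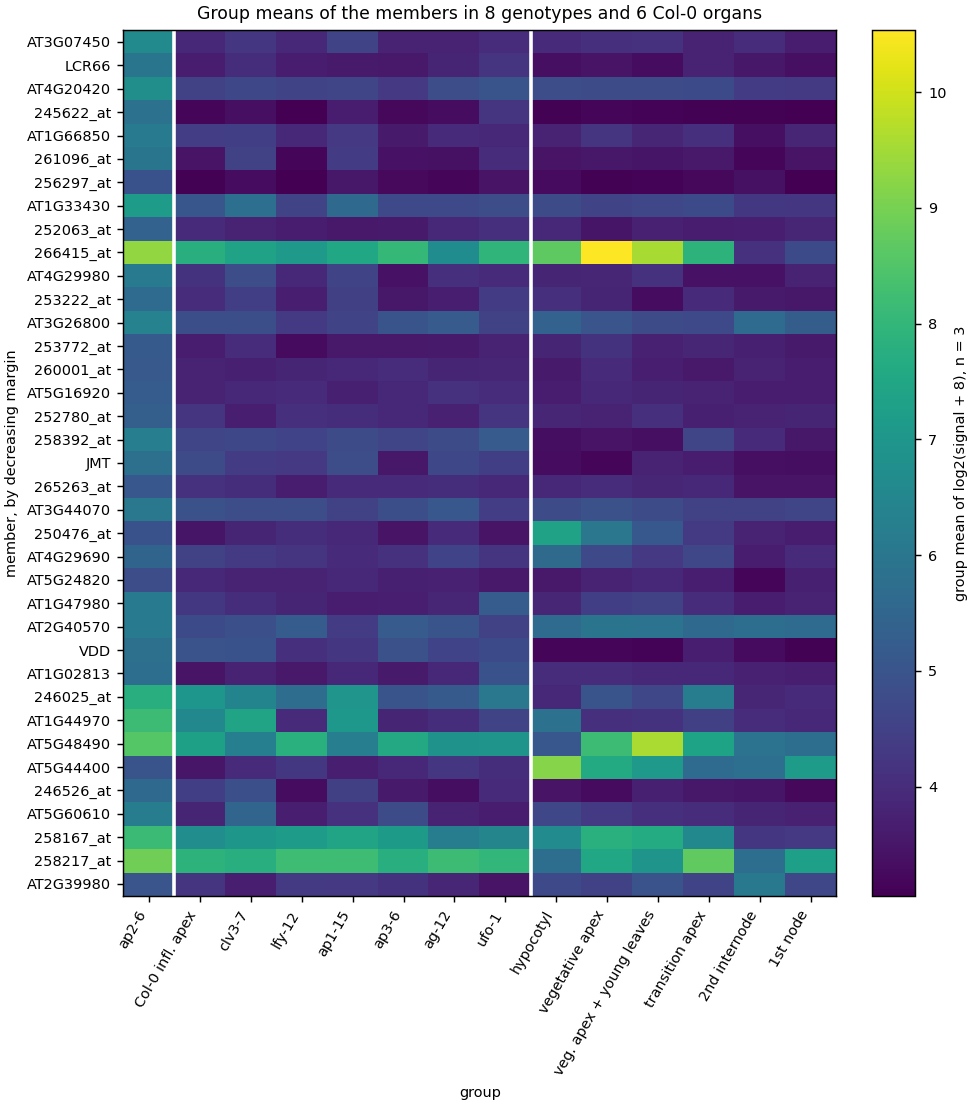
Colour gives the group mean of log2(signal + 8) (n = 3) for the 37 members (rows) in the 8 inflorescence groups and the 6 Col-0 organs (columns), with white lines after ap2-6 and before the organs. All rows share a single colour scale, so faint members look dark even in ap2-6, their highest inflorescence group by the rule. Rows such as 266415_at, AT5G48490 and AT5G44400 are bright in organs.

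In 6 members an organ mean exceeded the ap2-6 mean, which it did for 81.7% of all probe sets, faint ones included. The rule chose members for a high ap2-6 level, so a lower share was favoured in advance. AT5G44400 is the widest case, with 562, 588 and 546 in hypocotyl against 27.5, 23.9 and 21.8 in ap2-6. Probe set 266415_at read 1504, 1464 and 1461 in the vegetative apex, above its 628, 677 and 608 in ap2-6. AT5G48490 read 742, 768 and 796 in the vegetative apex with young leaves, and 250476_at read 154, 163 and 156 in hypocotyl. AT2G39980 had 56.7, 67.6 and 56.8 in the internode, while AT4G29690 in hypocotyl read 43.7, 40.4 and 41.2, close to its 39.9, 36.6 and 31.9 in ap2-6. For these 6, ap2-6 was the highest inflorescence but not the highest sample.

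The organ arrays allow tests, because they took no part in choosing the members. The filter for these tests, which asked that a probe set exceed an array's 40th percentile on at least 3 of the 18 arrays, kept 69.8% of all probe sets but 12 of the 37 members. The other 25, and all 5 genes set aside, were too faint in the organs to test. All 12 differed among the 6 organs in the F test of limma at an adjusted p under 0.05, as did 97.9% of 15882 probe sets. A count at that background says nothing particular about the members, so each gene is given by its own levels.

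Between vegetative and transition apex, the step into flowering, 3 of the 12 rose and 7 fell, where 30.4% of all probe sets rose and 23.4% fell (53.8% in all). Probe set 246025_at, one of the members with higher signals in Col-0, clv3-7 and ap1-15, rose from 25.3, 20.6 and 25.5 to 61.6, 60.7 and 73.3, by 1.2 ± 0.20 (limma, adjusted p = 3.5e-05). Probe set 258217_at rose from 167, 184 and 186 to 436, 370.1 and 438, by 1.18 ± 0.09. The peroxidase gene AT1G44970 rose from a faint 8.96 ± 1.95 to 14.8 ± 5.1 (SD, n = 3), by 0.41 ± 0.16 (limma, adjusted p = 0.041), a call that several alternatives did not keep. All 3 had a higher mean in ap2-6 than in the transition apex, a difference that was not tested. For 258217_at the ap2-6 arrays, at 432, 491 and 501, overlapped those of the transition apex. In the other direction 266415_at fell by 2.64 ± 0.21, to 235, 237 and 216. AT5G44400 fell by 1.95 ± 0.07, from 204, 182 and 187 to 42.2, 44.0 and 43.7, and 250476_at by 1.69 ± 0.12, 258167_at by 1.27 ± 0.12 and AT5G48490 by 0.78 ± 0.10. Smaller decreases, 0.34 ± 0.13 in AT3G26800 and 0.32 ± 0.12 in AT2G40570, were close to the threshold.

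Adding young leaves to the vegetative apex separated the members further. Of the 12, 2 rose and 5 fell, against 19.0% and 29.2% of all probe sets (48.2% in all). The lipid transfer family gene AT5G48490 rose from 287, 276 and 281 to 742, 768 and 796, by 1.42 ± 0.10 (limma, adjusted p = 3.4e-10), and the 2 groups did not overlap. The acyltransferase gene AT2G39980 rose by 0.46 ± 0.19 (limma, adjusted p = 0.047), with overlapping arrays and a call that several alternatives did not keep. Probe sets 266415_at, 250476_at and 258217_at fell by 0.98 ± 0.21, 0.90 ± 0.12 and 0.60 ± 0.09. AT5G44400 fell by 0.55 ± 0.07 and AT4G29690 by 0.41 ± 0.16 (limma, adjusted p = 0.036), the latter again close to the threshold.

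Along the stem, 2 members were higher and 3 lower in the internode than in the node, where 27.5% and 30.0% of all probe sets were (57.5% in all). AT2G39980 read 56.7, 67.6 and 56.8 in the internode and 23.0, 15.5 and 13.3 in the node, a difference of 1.45 ± 0.19 (limma, adjusted p = 7.9e-07). AT3G26800 was higher by 0.42 ± 0.13. Lower in the internode were 258217_at at -1.52 ± 0.09, AT5G44400 at -1.39 ± 0.07 and 266415_at at -0.60 ± 0.21 (limma, adjusted p = 0.019). For 266415_at the internode arrays read 1.79, 10.6 and 21.5, so the group overlaps the node, and without the first internode array the adjusted p was 0.21. Per the labels the node sample included pieces of side shoot and leaf, whose RNA cannot be told apart from that of the node.

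Among the organ comparisons tested, the widest differences lay between hypocotyl and internode. Pairs that were not tested could lie further apart, as 266415_at averaged 1476 in the vegetative apex, 401 in hypocotyl and 11.3 in the internode. Between hypocotyl and internode, 6 of the 12 were higher in hypocotyl and 2 lower (41.4% and 34.6% of all probe sets, 76.0% in all). Probe set 266415_at was higher by 4.54 ± 0.21, 250476_at by 3.57 ± 0.12 and AT5G44400 by 3.38 ± 0.07 (limma, adjusted p = 6.0e-21). Probe set 258167_at followed with 2.43 ± 0.12, AT4G29690 with 1.97 ± 0.16 and AT1G44970 with 1.82 ± 0.16. AT1G44970 read 54.1, 41.9 and 52.5 in hypocotyl, the only organ of the 6 in which the peroxidase exceeded 20.4 on any array. AT2G39980 and AT5G48490 were lower in hypocotyl, at -1.38 ± 0.19 and -0.80 ± 0.10. With per-array median scaling the median of all probe sets moved from 0.07 to -0.18 in this comparison and 38.4% instead of 54.5% of the calls were higher, while the directions of these 8 members stayed as given.

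**Figure D5:**
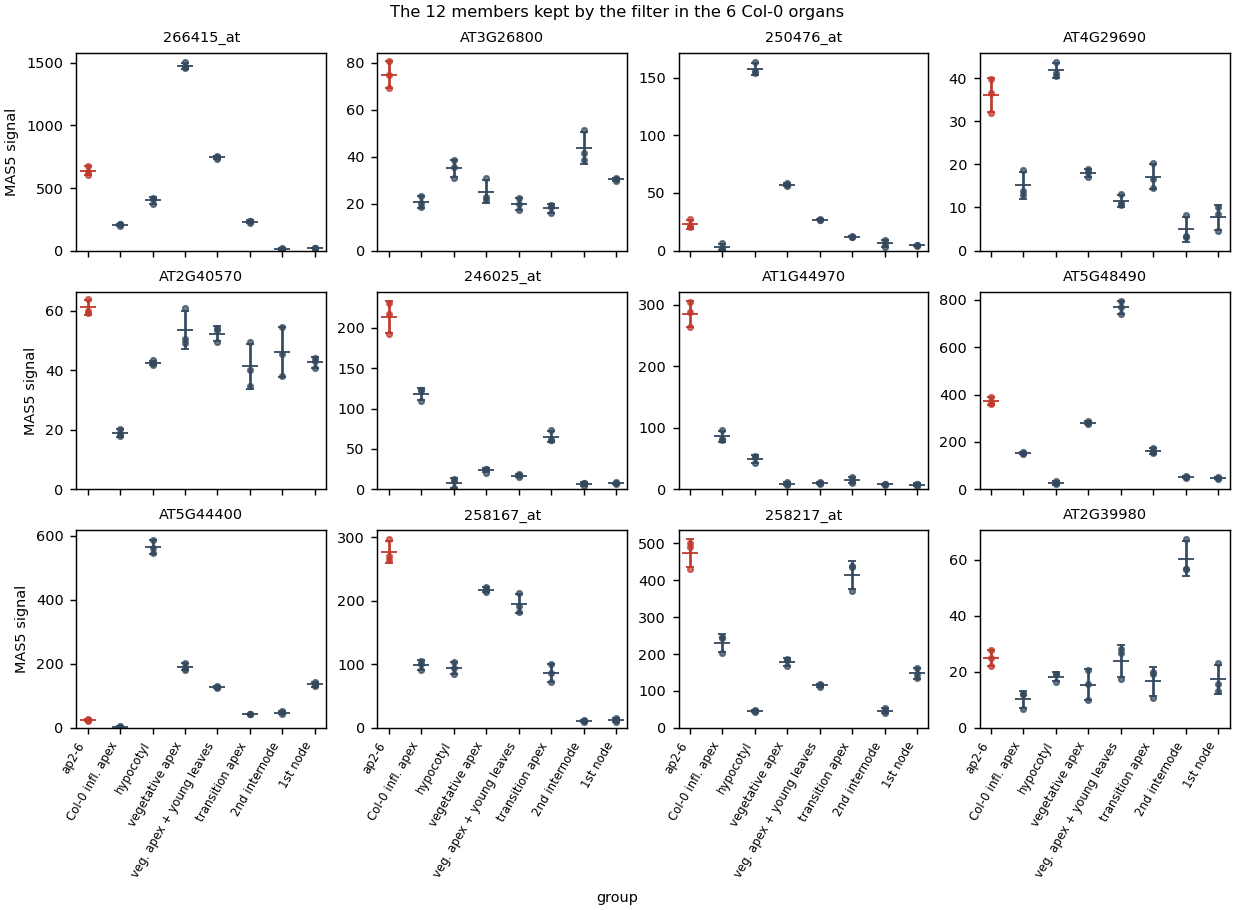
Signals (vertical axis, linear MAS5 units, a separate scale per panel) of the 12 members kept by the organ filter, in ap2-6 (red), the Col-0 inflorescence apex and the 6 Col-0 organs. Points are arrays and bars are means with SD (n = 3); the hypocotyl of AT5G44400 averages 565 and the vegetative apex of 266415_at 1476, both above ap2-6.

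The members were spread over all 5 nuclear chromosomes. Of the 21 with a single gene, 7 lie on chromosome 1, 2 on chromosome 2, 3 on chromosome 3, 3 on chromosome 4 and 6 on chromosome 5. The probe sets with a single gene are spread over chromosomes 1 to 5 at 25.8%, 16.5%, 20.5%, 14.7% and 22.5%.

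The quality measures of the ap2-6 arrays lay among those of the other genotypes. The log2 3'/5' signal ratio of the RNA controls averaged 1.63 in ap2-6 and between 1.56 and 2.03 in the other genotypes. Median signals of single arrays ran from 36.3 to 45.7 over all 42 arrays and averaged 43.3 ± 0.1 (SD, n = 3) in ap2-6. The added bacterial transcript dap averaged 3.34 ± 0.16 on the log2(signal + 8) scale in ap2-6, but 7.85 in the Col-0 inflorescence apex and 8.28 in the node, whose arrays therefore stood apart. Without Col-0 among the comparison groups the rule found 42 members, the 37 and 5 more. Leaving out a comparison group can only keep or add members, so the 37 had to remain.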

How the data were processed

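Biotin-labelled total RNA was measured on Affymetrix arrays of 22810 probe sets, 42 arrays in 14 groups. The deposited values are linear signal intensities per probe set from MAS5, per the submitters' processing notes, which name no version or settings. Each array had the same mean once the top and bottom 2% of its signals were trimmed.

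No further normalization was applied, and the 64 AFFX control probe sets were set aside. Levels were used as log2(signal + 8). The 18 organ arrays (15882 probe sets tested, with 12 residual degrees of freedom) and the 24 inflorescence arrays (14627 tested, with 16) were fitted separately with limma 3.58.1 under R 4.3.3 (lmFit, eBayes with trend). Probe sets entered a fit where 3 arrays exceeded the 40th percentile of the same array. Tests were two-sided, adjusted by Benjamini-Hochberg over all probe sets of a fit and called at an adjusted p under 0.05. The script was tested on simulated data. Figures were drawn with matplotlib 3.10.9. Arrays, 3 per group, limit the precision, and signals below about 20 are near background.

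The members, the gene lists and the tests were chosen with earlier results of these data known. Members were named by a rule: the 12 single genes of widest margin, those in a list, up to 3 per organ contrast and direction, and those nearest the threshold, plus up to 3 called genes of each list. Its classes by gene description could not be used, since the annotation holds no descriptions. AT1G47980, AT2G40570, VDD, AT1G02813, AT5G60610 and the unnamed probe sets outside this rule were chosen after their values were seen. Gene names and chromosomes follow RefSeq (TAIR10.1), and no coordinates are printed. The lists were anther wall and tapetum, early anther and sporogenous cells, meiotic cells, microspore and pollen, petal and stamen identity, carpel and ovule, leaf photosynthesis, vascular and secondary wall, epidermis, defence and jasmonate response, and cold, drought and senescence.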

Additional observations from a re-analysis of the deposited data

How the results depend on the processing

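No result changed direction under the alternatives. The rule found 15 members with 32 added before taking logs and 18 with a margin of 1, all of them among the 37. It found 46 with 2 added (37 shared), 38 after quantile normalization (35 shared), 36 after per-array median scaling (34 shared), 42 against the other 6 mutants alone (37 shared) and 35 with group medians (32 shared). A margin of 1 can only remove members, and leaving out Col-0 can only add them. Adding 2 in place of 8 widens the margins of the members, while adding 32 narrows them and so in effect only removes members. The overlap with the 37 was therefore fixed in advance in these cases and does not measure stability. Leaving out each of the 24 inflorescence arrays gave 35 to 41 members. All 24 repeats held 28 of the 37, and AT5G44400 and 258217_at, kept in 19 of them, were lost most often. Without a filter 21 of 37 members differed among the organs, since 25 more were tested, and with a 60th percentile filter 6 did, since 6 were tested. Over all probe sets 17845 of 22746 differed without a filter and 11937 of 12022 with the 60th percentile filter. The 60th percentile filter gave 6 calls for transition against vegetative apex, 3 for internode against node, 5 for hypocotyl against internode and 11 of 19 listed genes against the other mutants. Over all probe sets the calls were 7211, 7817 and 9780 of 12022 in the 3 organ comparisons and 2296 of 10228 against the other mutants. With only ap2-6 and Col-0 in the fit 11 listed genes passed instead of 7, and 3517 of 13836 probe sets passed. The cause was not tested. Leave-one-out counts ran from 9 to 12 members for the F test, 7 to 10 for transition against vegetative apex, 5 to 7 for young leaves, 4 to 7 for internode against node and 6 to 9 for hypocotyl against internode. For listed genes they ran from 13 to 18 against the other mutants and 6 to 9 against Col-0. Samples with the same title letter did not deviate together (median correlation 0.00051 over 273 pairs, 8 above 0.1), so the letters do not pair them. With a replicate block the counts were 12 members for the F test, 10 for transition against vegetative apex, 6 for young leaves, 5 for internode against node, 8 for hypocotyl against internode, and 17 and 7 listed genes. Of the calls on single named genes, 13 were lost under at least 1 alternative: AT1G44970, AT2G40570 and AT3G26800 at the transition, AT2G39980 and AT4G29690 with young leaves, 266415_at and AT3G26800 between internode and node, ALC, LHCB4.1, NGA2 and PUCHI against the other mutants, and EMS1 and SBPASE against Col-0. With median scaling 52.5% instead of 39.4% of the calls for young leaves were higher. Signals near background and 3 arrays per group limit what can be detected.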
